A study of Mus musculus with 20 samples.

Results

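Pre-mRNA splicing needs the small nuclear ribonucleoproteins (snRNPs) of the spliceosome and the RNA-binding proteins that guide them, and 67 genes of this machinery were followed through sorted mouse CD4 T cells. They are every row of the count table, among 22068 gene symbols, whose symbol begins with Srsf and a number, Hnrnp, Hnrp, Sf3a or Sf3b, Snrp, U2af or Prpf and a number. By role they are 11 SR proteins, 20 hnRNP proteins, 8 Sm core proteins, 7 proteins of the U1 snRNP with its associated factors and the Prp38 proteins, 13 proteins of the U2 snRNP and its recruiting factor U2AF, and 8 proteins of the U5 and tri-snRNP and the Prp19 complex. All 67 passed the filter on low counts.

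The study sequenced polyadenylated RNA of 20 libraries made from C57BL/6 mice of 8 to 12 weeks, with spleen and lymph node cells together. The mice carried a Foxp3-GFP reporter, in which cells that express Foxp3, the transcription factor of regulatory T cells, fluoresce. Naive CD4 T cells were GFP-negative and low in CD44, and were taken from the 15% with the lowest (CD5lo) or the 15% with the highest (CD5hi) surface CD5, a receptor that is set higher on naive cells with stronger self-recognition. They were lysed either directly (fresh) or after 22 hours in culture with interleukin 7 at 10 ng/mL (rested), a culture that the series text describes as removing contact with self-peptide on MHC. Regulatory T cells (Treg) were sorted as GFP-positive CD4 cells, with no CD5 or CD44 gate named, and lysed directly. A dump channel removed CD69-positive cells from both sorts, and also cells with B220, NK1.1, CD11b, CD11c, F4/80 or Ly6G, which mark B, NK, myeloid and dendritic cells. Each of the 5 groups had 4 libraries, called biological replicates and said to pool male and female mice. The rested groups differ from the fresh ones by culture, interleukin 7 and time together, which cannot be told apart.

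SR proteins carry arginine- and serine-rich domains, bind exonic enhancers and help the U1 snRNP and U2AF to find splice sites, and hnRNP proteins coat nascent RNA and often act in the opposite sense. Sm proteins form the ring shared by the spliceosomal snRNPs. U1 recognises the 5′ splice site, U2AF and the SF3A and SF3B complexes of U2 recognise the branch region and 3′ splice site, and the tri-snRNP brings the catalytic core with PRPF8 at its centre. In T cells the best known target is CD45, whose variable exons are skipped through hnRNP L and hnRNP LL. Many of these genes limit their own output by splicing in a premature stop, which sends the transcript to nonsense-mediated decay. A count per gene adds productive and unproductive transcripts together.

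Levels are CPM, the counts of a gene relative to the library total after edgeR's trimmed-mean (TMM) scaling. They are given for replicates 1 to 4 in order, or as mean ± SD (n = 4). A change is given as a log2 fold change ± SE, and a gene was called changed at an adjusted p below 0.05 (edgeR quasi-likelihood test, Benjamini-Hochberg over 13309 genes). Libraries held 38211406 to 64477566 counts, of which the 67 genes took 1.45 to 1.66%. The naive sorts held 10 of 10 CD4 T cell markers at a summed 5802 to 7078 CPM, and Treg held 6 Treg markers at 3586 to 3838 CPM against 69.3 to 294.9 in the naive groups. All 8 fresh libraries carried Y-linked transcripts, at 366 to 405 CPM over 4 genes. Only replicate 3 of each rested and Treg group did, at 326 to 334 CPM, while the other 9 libraries held 755 to 1736 CPM of Xist. The Y-linked libraries held at most 0.721 CPM of Xist, so that, against the pooling of both sexes in the labels, no library held both in quantity. Sex therefore differed between fresh and rested and between fresh and Treg libraries, and it cannot be told apart from those groups except through the libraries of replicate 3. Of the 67 genes, 1 lies on the X chromosome (Hnrnph2).

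Levels were also divided by the kilobases of annotated exon in GENCODE M21, with all transcripts of a gene merged. This compares genes only roughly, since the merged length need not be that of the transcript in use. By this measure the hnRNP genes led in fresh CD5lo cells. Hnrnpf stood at 322 CPM per kb, Hnrnpa3 at 182 and Hnrnpa2b1 at 168, followed by the SR gene Srsf5 at 134. Sf3b1, the branch-site subunit of SF3B, reached 93.2 CPM per kb and Prpf8 84.2. At the other end Hnrpll stood at 3.86, the SR gene Srsf12 at 1.81 and Snrpn, an imprinted Sm gene best known from neurons, at 0.365 CPM per kb. The place of Hnrpll depends on its merged length of 11677 bases, and it averaged 45.1 CPM before this division. In unscaled CPM, 65 of the 67 genes averaged at least 10 in some group and 41 at least 100.

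Most of these genes varied little between groups. Neither this span nor the ranking of groups below was compared with that of other genes. The highest group mean exceeded the lowest by a median of 1.24 times over the 67 genes, 34 genes stayed under 1.25 times and 9 went past 1.5 times, of which 3 went past 2 times (Snrpn, Hnrpll and Srsf12). The flattest, named after its values were seen, was Hnrnpk, a poly(C)-binding hnRNP, at 579, 595, 602, 603 and 579.8 CPM in fresh CD5lo, fresh CD5hi, rested CD5lo, rested CD5hi and Treg, a ratio of 1.04. Treg held the lowest mean for 33 of the 67 genes and the highest for 8. Fresh CD5lo cells held the highest for 21.

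The 67 genes lie on 18 chromosomes. In GENCODE M21, 34 of them (50.75%) have an annotated transcript of the nonsense-mediated decay class, against 28.86% of 12342 tested coding genes, and among SR genes it is 9 of 11. Exons of 16 genes overlap those of another coding gene, so that reads may belong to the partner. A partner on the opposite strand matters only if strand was not used. Such are Srsf2 with Mettl23 (15.55% of its exon bases) and Mfsd11, Snrpd3 with Gucd1 (6.74%) and Hnrnph3 with Rufy2 (3.65%). Larger overlaps were those of Snrpf with Ccdc38 (65.85%) and Hnrnpab with Phykpl (29.08%), also on opposite strands. U2af1l4 overlaps Gm49396 on the same strand (65.58%). Families such as Hnrnpa1, Hnrnpa3, Snrpe, Snrpg and Srsf3 have processed pseudogenes, with which reads can be shared.

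RefSeq promoters (GRCm38.p6) were matched for 58 of the 67 genes, and the 250 bases before each start were searched on both strands for 7 motifs. The core motif of ETS factors, CCGGAAG, was present in 16 of the 58 (27.59%), against 14% of 10349 promoters of tested genes, and the CCAAT box, CCAATC, in 20 (34.48%), against 19.91%. These 2 are described further because their shares lay farthest above the background. Median GC content was 59.2% in the 58 and 59.6% in the tested promoters. The E-box CACGTG was in 8.621% against 8.271%, the CRE TGACGTCA in 3.448% against 2.735% and the TATA box TATAAA in 8.621% against 6.561%. The NRF1 core was in 0 of the 58 against 1.652%, and the YY1 motif in 0 against 0.4735%. Stretches were taken from genes called lower in Treg than in fresh CD5lo cells, with 1 RefSeq start and a motif outside annotated exons. The stretches that follow have the motif in capitals (GATTGG is the CCAAT box on the opposite strand). They show how the boxes sit in GC-rich sequence shortly before the start, and the match is a description of the letters, not of binding.
Hnrnpa0 chr13:58128593-58128648 (-): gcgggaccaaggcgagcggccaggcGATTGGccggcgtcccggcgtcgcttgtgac
Hnrnpa3 chr2:75659111-75659166 (+): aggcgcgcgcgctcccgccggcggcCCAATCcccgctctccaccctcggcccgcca
Prpf38b chr3:108911758-108911813 (-): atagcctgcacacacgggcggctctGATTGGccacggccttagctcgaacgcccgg
Srsf5 chr12:80945451-80945498 (+): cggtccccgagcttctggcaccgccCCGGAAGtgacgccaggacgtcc
Of the 26 promoters of genes that were lower in Treg than in fresh CD5lo cells, 8 held the ETS core and 7 the CCAAT box, against 8 and 13 of the other 32.

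Few of the 67 were called between CD5 groups (1.49% when fresh and 4.48% when rested, against 11.5 and 8.20% of all tested genes). On resting 50.7% in CD5lo and 40.3% in CD5hi cells were called, against 54.3 and 52.4% of all genes, in both directions. In Treg 44.8 and 47.8% were called, against 58.5 and 54.2%, and nearly all of them were lower, so that in none of the 6 comparisons did the total share exceed the background. The changes were small. Apart from Snrpn, Srsf12 and Hnrpll, no called change of the 67 in these 6 comparisons was larger than the -0.74 (log2) of Prpf40b, a U1-associated protein, between Treg and fresh CD5lo cells.

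**Figure D1:**
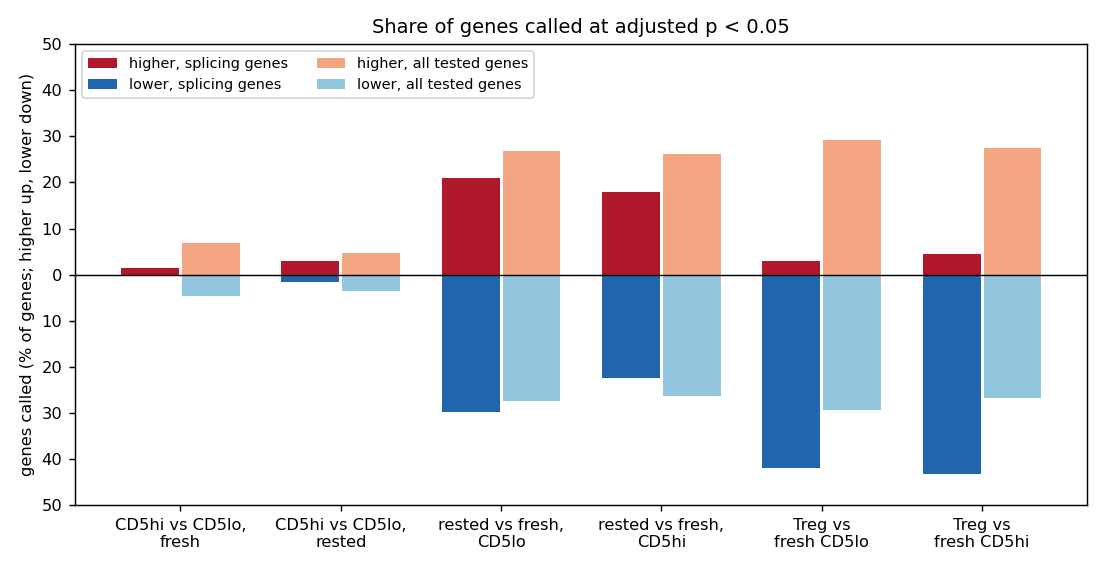
Percentage of the 67 splicing genes (dark bars) and of all 13309 tested genes (light bars) called higher (up) or lower (down) in each of 6 comparisons, at an adjusted p below 0.05. In Treg the splicing genes called higher are 2 and 3 of 67, while 29.2% and 27.5% of all genes were called higher.

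Between fresh CD5hi and fresh CD5lo cells 1 of the 67 genes was called, a higher one, where 11.5% of all tested genes were called, 6.86% higher and 4.59% lower. Between the rested groups it was 3 of 67, 2 higher and 1 lower, where 8.20% were called, 4.74% higher and 3.46% lower. Sf3b1, whose product holds the branch-point helix, was the gene called in both states. It stood at 1025, 1066, 1086 and 1059.9 CPM in fresh CD5lo cells and at 1229, 1208, 1236 and 1235 in fresh CD5hi cells. Every fresh CD5hi library lay above every fresh CD5lo library, a log2 fold change of 0.21 ± 0.05 (adjusted p = 0.0090). After resting it stood at 1126, 1163, 1045 and 1068 CPM in CD5lo and 1324, 1265, 1158 and 1346 in CD5hi cells, a log2 fold change of 0.21 ± 0.05 (adjusted p = 0.014). The rested groups overlapped slightly, since CD5hi replicate 3 lay below CD5lo replicate 2. Rested replicates 1 and 2 alone gave 0.18 (adjusted p = 0.066) and replicates 3 and 4 alone 0.25 (adjusted p = 0.0514). Summed transcripts of 8 CD8 and NK cell genes moved the other way, at 85.2 to 93.4 CPM in fresh CD5lo against 36.3 to 38.9 in fresh CD5hi libraries. Ncr1 of that list was at 0 in all fresh CD5hi libraries, and the part of these cells in the result was not tested.

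The calls on the other rested genes were close to the threshold. Srsf6, an SR protein that binds exonic enhancers, averaged 454 ± 19.8 CPM in CD5lo and 515 ± 39.0 in CD5hi cells after resting, a log2 fold change of 0.18 ± 0.06 (adjusted p = 0.0496). Prpf6, a bridging protein of the tri-snRNP, averaged 119.7 ± 0.698 and 109 ± 2.14 CPM, a change of -0.13 ± 0.04 (adjusted p = 0.022). The Srsf6 call was lost on leaving out any one of 6 of the 8 rested libraries (CD5lo replicates 1, 2 and 3, CD5hi replicates 1, 2 and 4), and so was that on Prpf6 (CD5lo replicates 1 to 4, CD5hi replicates 1 and 4). With the replicate number within each state as a block, 2 genes were called when fresh, Sf3b1 and the lower Hnrnph3. When rested 5 were called, which added Hnrnpu and, lower, Snrpn to the 3 above. The same block called 18.0% of all tested genes when fresh and 14.7% when rested, against 11.5 and 8.20% without it.

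Of the 11 genes given in every comparison, Sf3b1 was the only one called between CD5 groups, and the other 10 were not. In fresh CD5hi against CD5lo cells Srsf1 gave 0.01 ± 0.08, Srsf2 -0.02 ± 0.09, Srsf3 -0.01 ± 0.06, Srsf5 -0.15 ± 0.10 and Srsf7 -0.02 ± 0.07, none of them called. Hnrnpl gave 0.05 ± 0.04, Hnrpll -0.06 ± 0.06, U2af1 0.02 ± 0.05 and Prpf8 -0.07 ± 0.06. Hnrnpa1 gave -0.12 ± 0.15, and all its CD5hi libraries, at 335 to 368 CPM, lay below all CD5lo libraries, at 368 to 398. It was called in a fit on the fresh groups alone (adjusted p = 0.0472) but not over all 20 libraries (0.74). After resting these 10 genes ran from -0.08 (Hnrnpa1) to 0.10 (Srsf2). In the interaction, which asks whether a CD5 difference shifted on resting, 0 of 67 were called, where 0.451% of all genes were, 0.113% higher and 0.338% lower, with 0 at an unadjusted p below 0.05 and 0 by DESeq2.

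Resting called 34 of the 67 genes in CD5lo cells, 14 higher and 20 lower, where 54.3% of all genes were called, 26.9% higher and 27.3% lower. For CD5hi cells the count was 27, 12 higher and 15 lower, where 52.4% were, 26.2% each way. The total shares, 50.7 and 40.3%, lie under the background. By role, genes called higher were 45.5% of SR genes in both CD5 groups and 62.5 and 50% of Sm genes. Genes called lower were 30% and 20% of hnRNP genes and 46.2 and 15.4% of U2 genes in CD5lo and CD5hi cells. The groups are small and these shares were not tested against the background. The median log2 fold change of the 67 was -0.05 in CD5lo and -0.01 in CD5hi cells, against -0.01 and 0.00 over all genes.

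SR genes had 5 of 11 called higher and 2 lower in CD5lo cells, and 5 higher and 3 lower in CD5hi cells. Srsf1, the founding SR protein, stood at 358, 375, 351 and 359 CPM in fresh and 448, 478, 537 and 548 in rested CD5lo cells, and at 375, 372, 358 and 345 in fresh and 455, 452, 526 and 509 in rested CD5hi cells. All 8 rested libraries lay above all 8 fresh ones. It rose by 0.48 ± 0.08 (adjusted p = 2.0e-05) in CD5lo and by 0.42 ± 0.08 (adjusted p = 8.9e-05) in CD5hi cells. Srsf10, which represses splicing when dephosphorylated, rose from 159 ± 6.75 to 199 ± 15.4 CPM (0.32 ± 0.06 (adjusted p = 9.2e-05)) in CD5lo and from 161 ± 7.30 to 195 ± 14.6 (0.28 ± 0.06 (adjusted p = 0.00053)) in CD5hi cells.

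Srsf2, which regulates its own transcript through decay, stood at 253, 264, 268 and 259 CPM in fresh and 361, 359.6, 283 and 295 in rested CD5lo cells, and at 257, 242, 274 and 255 and 384, 374, 277 and 354 in CD5hi cells. Replicate 3 of both rested groups and replicate 4 of the CD5lo group were the lowest of the rested libraries, though above their fresh counterparts. The rises were 0.31 ± 0.09 (adjusted p = 0.0062) and 0.43 ± 0.09 (adjusted p = 0.00043). With only the Y-linked libraries, which leaves 1 rested library per group, they were 0.13 and 0.12 (adjusted p = 0.10 and 0.12).

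Srsf5 averaged 536 ± 44.7 CPM in fresh and 621 ± 57.2 in rested CD5lo cells, without a call (0.21 ± 0.10 (adjusted p = 0.072)), and rose from 483 ± 31.4 to 621 ± 88.9 in CD5hi cells (0.36 ± 0.10 (adjusted p = 0.0040)). Among Y-linked libraries the CD5hi change was 0.03 (adjusted p = 0.79), since rested CD5hi replicate 3 held 489.9 CPM against 643 to 684 in the others. The fresh and rested CD5hi groups overlapped through that library. Srsf6 rose by 0.14 ± 0.06 (adjusted p = 0.041) and 0.29 ± 0.06 (adjusted p = 0.00020), and Srsf7, which takes part in export as well as splicing, by 0.17 ± 0.07 (adjusted p = 0.042) in CD5lo cells, with 0.11 ± 0.07 (adjusted p = 0.17) in CD5hi cells. The CD5lo call on Srsf7 was lost without fresh replicate 1 or 4 or without rested replicate 3 or 4. Srsf3, at 288 ± 25.8 and 273 ± 7.55 CPM in CD5lo and 287 ± 18.0 and 264 ± 17.9 in CD5hi cells, was not called.

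Srsf12 fell the most of the SR genes called lower. The others, named after their values were seen, were Srsf4, at -0.13 ± 0.05 (adjusted p = 0.019) in CD5lo and -0.12 ± 0.05 (adjusted p = 0.038) in CD5hi cells, and Srsf9 in CD5hi cells, at -0.14 ± 0.05 (adjusted p = 0.043). Srsf12 is a weakly expressed SR protein, also named after its values were seen because it lies under the level set for naming. It stood at 5.67, 5.87, 5.44 and 5.87 CPM in fresh and 2.86, 2.66, 2.56 and 2.88 in rested CD5lo cells, and at 5.98, 5.97, 5.57 and 5.84 and 2.23, 2.39, 2.19 and 3.11 in CD5hi cells. No rested library came near a fresh one. It fell by 1.06 ± 0.12 and by 1.23 ± 0.12 on the log2 scale, the largest falls among genes above 1 CPM in the 67.

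**Figure D2:**
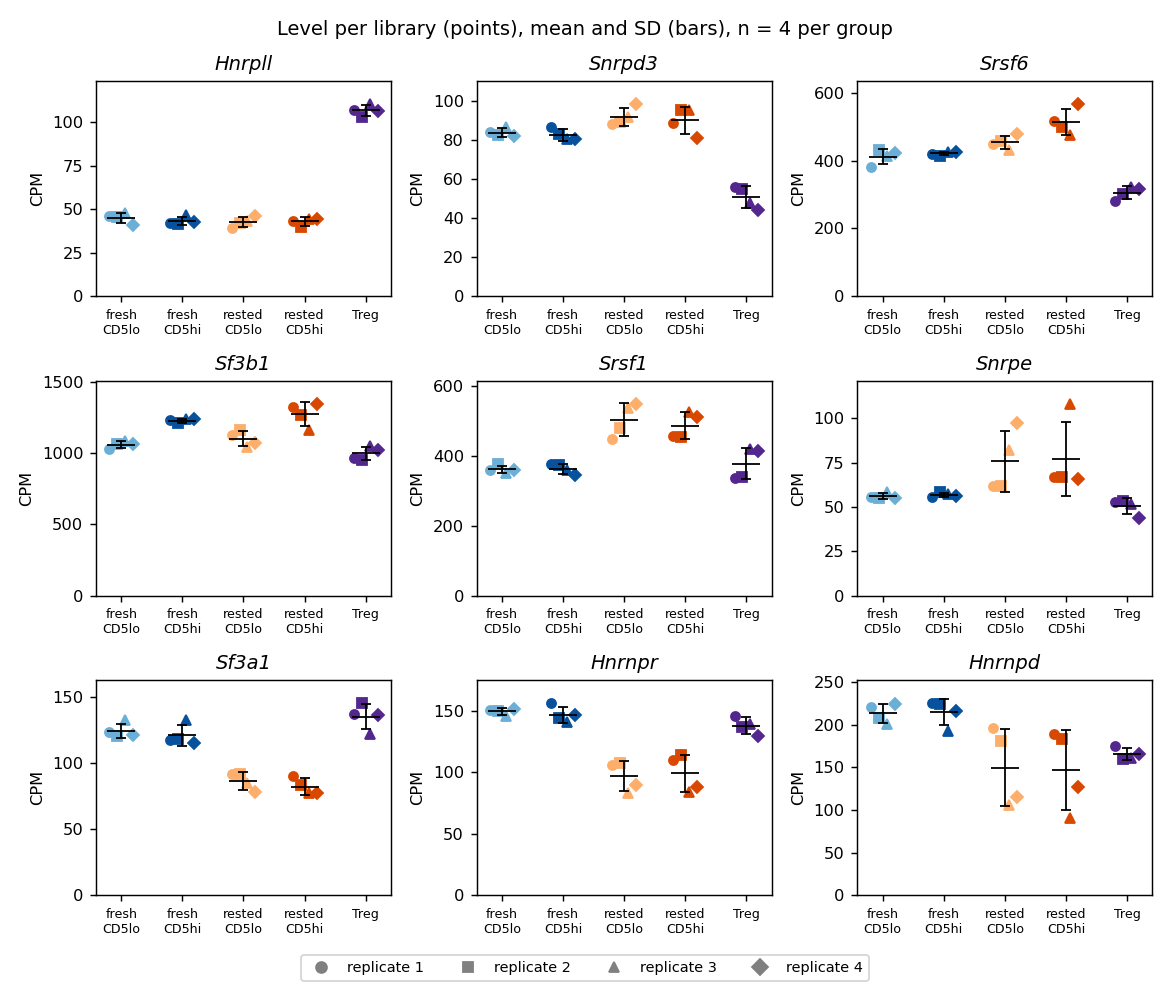
CPM (y axis, from 0) of 9 splicing genes in each of the 20 libraries (points, marker shape by replicate number), with mean and SD (black bars, n = 4) per group on the x axis. Hnrpll is high in the 4 Treg libraries alone, Snrpd3 and Srsf6 are low there, Srsf1 is high in the 8 rested libraries, and Hnrnpd and Snrpe spread widely among the rested libraries.

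The hnRNP genes had 2 of 20 called higher and 6 lower in CD5lo cells, and 1 higher and 4 lower in CD5hi cells. Hnrnpr, an RNA-binding protein related to SYNCRIP, stood at 151, 149.9, 145 and 152 CPM in fresh and 106, 108, 83.5 and 89.4 in rested CD5lo cells, and at 156, 144, 141 and 146 and 110.3, 114, 84.0 and 88.3 in CD5hi cells. No rested library reached a fresh one, and replicates 3 and 4 were the lowest in both rested groups. It fell by 0.63 ± 0.09 and 0.57 ± 0.09 on the log2 scale (adjusted p = 3.6e-06 and 1.4e-05).

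Hnrnpd, also known as AUF1, which binds AU-rich elements and speeds mRNA decay, was lower with a wider spread. It stood at 220.2, 208, 201 and 224 CPM in fresh and 196, 181, 106 and 115 in rested CD5lo cells, and at 225, 224, 193 and 216 and 189, 183, 90.4 and 127 in CD5hi cells. The rested libraries split, with replicates 1 and 2 nearer to the fresh level and replicates 3 and 4 far below it. The change was -0.51 ± 0.18 (adjusted p = 0.023) in CD5lo and -0.54 ± 0.18 (adjusted p = 0.017) in CD5hi cells. Replicates 1 and 2 alone gave -0.19 and -0.22, and replicates 3 and 4 alone -0.94 and -0.98. The call was lost without rested CD5lo replicate 3 or 4 (adjusted p = 0.083 and 0.078) and without rested CD5hi replicate 3 (0.0502).

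Hnrnpa1, the classic antagonist of SRSF1 at splice sites, split in the same way, at 354, 332, 219 and 234 CPM in CD5lo and 329, 310.3, 176 and 263 in CD5hi cells after resting, against 335 to 398 in the 8 fresh libraries. It fell by 0.43 ± 0.15 and 0.39 ± 0.15 on the log2 scale (adjusted p = 0.017 and 0.030). The calls were lost without rested CD5lo replicate 3 or 4, and without rested CD5hi replicate 3 or 4 or fresh CD5hi replicate 1 or 4. Replicates 1 and 2 alone gave -0.17 and -0.16, and replicates 3 and 4 alone -0.76 and -0.68, called in each pair. Hnrnpf, which binds G-rich runs, was the hnRNP gene higher in both CD5 groups, from 981 ± 31.1 to 1158 ± 141 CPM (0.24 ± 0.08 (adjusted p = 0.012)) and from 1024 ± 28.6 to 1183 ± 119 (0.21 ± 0.08 (adjusted p = 0.027)). Its CD5lo call was lost without rested replicate 3 or 4, and replicates 1 and 2 alone gave 0.07.

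The CD45 regulators stayed near their fresh level. Hnrnpl averaged 359.6 ± 9.27 CPM in fresh and 399 ± 14.4 in rested CD5lo cells, a rise of 0.15 ± 0.04 (adjusted p = 0.0033), with 0.09 ± 0.04 (adjusted p = 0.078) in CD5hi cells. Hnrpll gave -0.08 ± 0.06 and -0.01 ± 0.06 and was not called.

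Sm core genes had 5 of 8 called higher in CD5lo and 4 higher in CD5hi cells, with Snrpn lower in both. Snrpd2, an Sm ring protein, stood at 49.9, 47.5, 46.3 and 46.9 CPM in fresh and 53.6, 53.2, 71.9 and 65.4 in rested CD5lo cells, and at 46.2, 46.0, 45.8 and 45.2 and 60.3, 59.7, 76.1 and 52.7 in CD5hi cells. Rested replicate 3 was the highest of its group in both CD5 groups. The rises were 0.36 ± 0.10 (adjusted p = 0.0046) and 0.44 ± 0.10 (adjusted p = 0.00085), and replicates 1 and 2 alone gave 0.16 and 0.38.

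Snrpe, another ring protein, stood after resting at 61.9, 62.0, 81.9 and 97.4 CPM in CD5lo and 67.0, 67.1, 108 and 65.6 in CD5hi cells, against 54.9 to 58.4 in the fresh libraries. All rested libraries lay above all fresh ones, and 3 of them were far above the rest. The rises were 0.44 ± 0.14 (adjusted p = 0.013) and 0.44 ± 0.14 (adjusted p = 0.013). The call was lost without rested CD5lo replicate 4, at 0.29 (adjusted p = 0.090), and without rested CD5hi replicate 3, at 0.22 (adjusted p = 0.12). Snrpd1 rose in CD5lo cells from a mean of 19.9 to 23.3 CPM (0.23 ± 0.08 (adjusted p = 0.017)), with 0.05 ± 0.08 (adjusted p = 0.59) in CD5hi cells. Its CD5lo call was lost without rested replicate 4 or fresh replicate 2. In CD5lo cells rested replicates 1 and 2 alone gave 0.20 (adjusted p = 0.059), and Y-linked libraries alone 0.08.

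Snrpn held so few reads that its counts are given, and it was named after its values were seen. They were 46, 49, 30 and 47 in fresh and 4, 10, 19 and 6 in rested CD5lo cells, 20, 20, 38 and 30 in fresh and 0, 0, 10 and 2 in rested CD5hi cells, and 30, 29, 47 and 35 in Treg. Rested libraries were below the fresh libraries of the same CD5 group throughout, and replicate 3 was the highest of each rested group. The fitted falls, 1.90 ± 0.50 and 2.91 ± 0.62 on the log2 scale, rest on counts near 0 (adjusted p = 0.0029 and 0.00054). Reads of Snrpn and of Snurf, which share exons, cannot be told apart.

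Among the U1 and Prp38 genes, 1 of 7 was called higher and 3 lower in each CD5 group. Prpf38b, a relative of the spliceosome activator Prp38, averaged 316 ± 15.4 CPM in fresh and 224 ± 22.7 in rested CD5lo cells (-0.50 ± 0.08 (adjusted p = 2.9e-05)), and 329 ± 5.64 and 232 ± 34.6 in CD5hi cells (-0.50 ± 0.08 (adjusted p = 2.6e-05)). Prpf40b, a homologue of a yeast U1 protein that bridges the splice sites, fell from 20.5 ± 1.66 to 15.3 ± 1.15 CPM (-0.42 ± 0.09 (adjusted p = 0.00034)) and from 19.7 ± 1.42 to 13.7 ± 1.75 (-0.53 ± 0.09 (adjusted p = 3.4e-05)). None of the rested libraries overlapped the fresh libraries of its CD5 group for either gene. Snrpa, an RNA-binding protein of U1, fell from 43.1 ± 1.99 to 33.5 ± 2.69 CPM (-0.36 ± 0.06 (adjusted p = 6.0e-05)) and from 42.0 ± 1.99 to 35.6 ± 2.83 (-0.24 ± 0.06 (adjusted p = 0.0031)).

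The U2 genes had 0 of 13 called higher and 6 lower in CD5lo cells, and 0 and 2 in CD5hi cells. Sf3a1, the scaffold of SF3A, stood at 123, 120.0, 132 and 121 CPM in fresh and 91.3, 91.3, 84.5 and 77.6 in rested CD5lo cells, and at 117, 118, 132 and 115 and 90.2, 83.4, 77.4 and 77.2 in CD5hi cells. The 8 rested libraries were all below the 8 fresh ones, with a gap wider than the spread within either set. It fell by 0.53 ± 0.07 and 0.56 ± 0.07 on the log2 scale (adjusted p = 9.6e-07 and 4.6e-07), and by 0.54 and 0.63 among Y-linked libraries alone. Sf3b1 did not follow it, at 0.05 ± 0.05 (adjusted p = 0.40) and 0.05 ± 0.05 (adjusted p = 0.42), and U2af1, which reads the AG of the 3′ splice site, gave 0.06 ± 0.05 (adjusted p = 0.29) and 0.07 ± 0.05 (adjusted p = 0.24).

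In the tri-snRNP and Prp19 group 1 of 8 was called higher and 2 lower in each CD5 group. Prpf8, the largest protein of the catalytic core, stood at 639, 595, 641 and 638 CPM in fresh and 522, 505, 468 and 443 in rested CD5lo cells, and at 599, 589, 602 and 611 and 498, 477, 444 and 441 in CD5hi cells. All rested libraries lay below all fresh ones. It fell by 0.38 ± 0.06 and 0.37 ± 0.06 on the log2 scale (adjusted p = 1.4e-05 and 1.9e-05). Prpf18, which acts at the second catalytic step, rose from 80.5 ± 1.99 to 97.8 ± 3.25 CPM in CD5lo cells (0.28 ± 0.04 (adjusted p = 1.5e-05)).

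The changes on resting were alike in the 2 CD5 groups, whose libraries are distinct although those of the same number tended to deviate together. Of the 34 genes called in CD5lo and the 27 called in CD5hi cells, 25 were called in both, 11 higher and 14 lower, and 0 in opposite directions. That is 73.5% of the CD5lo and 92.6% of the CD5hi calls, against 82.7% and 85.6% for all tested genes. Across the 67 genes, which are not independent, the log2 fold changes had a Pearson correlation of 0.962, and across all tested genes 0.846. These 2 values were not matched for level. Of the 67 genes 65 averaged at least 10 CPM in some group, while the tested genes include weaker ones. A gene called in 1 of the 2 groups is not thereby shown to differ between them, and none did in the interaction. Rested replicate 3 of both groups and replicate 4 of the CD5lo group stood farthest from the fresh level for several genes above. Rested replicates 1 and 2 alone called 24 and 25 of the 67, and replicates 3 and 4 alone 34 and 27, in CD5lo and CD5hi cells. Over all tested genes, replicates 1 and 2 alone called 6230 and 6241 of 13611, and replicates 3 and 4 alone 7664 and 7169 of 13587.

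**Figure D3:**
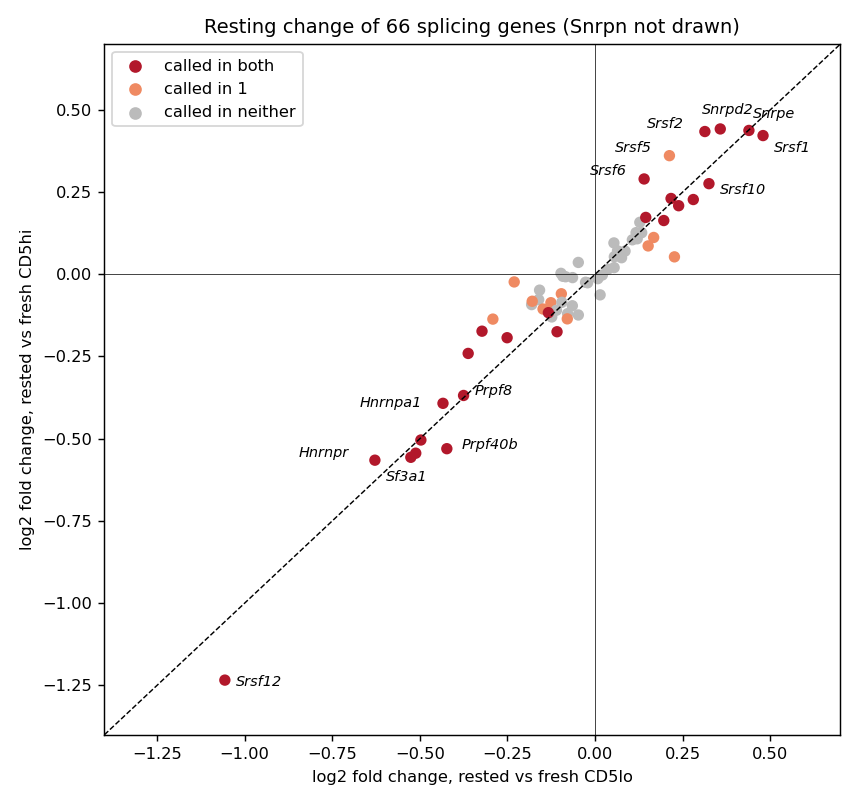
Log2 fold change on resting in CD5lo cells (x axis) and CD5hi cells (y axis) of 66 splicing genes, coloured by the number of CD5 groups in which each was called. Points follow the dashed line of equal change, with Srsf12 lowest and Srsf1, Snrpe, Snrpd2 and Srsf2 highest, and Snrpn, at -1.90 and -2.91, lies outside the axes.

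Myeloid transcripts, 9 genes detected of 10, ran from 184 to 208 CPM in the fresh and from 122 to 193 in the rested libraries. Erythroid transcripts, 6 genes of 8, ran from 32.2 to 113 and from 0.330 to 18.7 CPM. B cell transcripts, 7 of 8, ran from 3.88 to 6.19 and from 5.71 to 10.5 CPM. CD8 and NK cell transcripts, 8 of 8, ran from 85.2 to 93.4 CPM in fresh and from 47.2 to 54.3 in rested CD5lo libraries, and from 36.3 to 38.9 and from 20.5 to 24.5 in CD5hi libraries. The 6 Treg markers ran from 69.3 to 78.7 in fresh and from 176 to 199 in rested CD5lo libraries, and from 287 to 294.9 and from 241 to 276 in CD5hi libraries. No gene of the myeloid, B cell and Treg lists was at 0 throughout a group, while Ncr1 was at 0 in both rested groups and Gzma in rested CD5hi cells, and the part of these 5 lists in the resting changes was not tested. A lower count in these bulk libraries can mean fewer cells that make a transcript or less of it in each cell, which cannot be told apart.

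Treg carried less of many splicing transcripts than fresh naive cells and more of very few. Against fresh CD5lo cells 30 of 67 genes were called, 2 higher and 28 lower, where 58.5% of all genes were called, 29.2% higher and 29.4% lower. Against fresh CD5hi cells it was 32, 3 higher and 29 lower, where 54.2% were called, 27.5% higher and 26.6% lower. The medians over the 67 genes were -0.13 and -0.13, and over all tested genes -0.03 and -0.02. With the size factors of DESeq2 in edgeR, which move the median of all genes to 0.00 and 0.01, the calls were 2 higher and 23 lower, and 4 higher and 22 lower. Of all 13309 tested genes, that fit called 7604 against CD5lo cells, 4081 of them higher, and 7053 against CD5hi cells, 3863 of them higher. The 2 comparisons share the Treg libraries. Shares called lower by role follow, against CD5lo and then CD5hi cells, where all tested genes had 29.4 and 26.6%. They were 54.5% of SR genes in both, 35 and 40% of hnRNP genes, and 25 and 37.5% of Sm genes. U1 and Prp38 genes had 42.9% and U2 genes 30.8% in both, and the tri-snRNP and Prp19 group 75 and 62.5%. The groups are small and these shares were not tested against the background.

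Hnrpll was the outstanding exception. It stood at 107, 103, 111 and 107 CPM in Treg, against 46.1, 45.5, 47.9 and 41.0 in fresh CD5lo and 41.8, 41.5, 46.6 and 42.9 in fresh CD5hi cells, and 39.0 to 46.0 over the 8 rested libraries. Every Treg library lay far above every naive one. It was higher in Treg by 1.25 ± 0.06 (adjusted p = 1.2e-13) against CD5lo and 1.31 ± 0.06 (adjusted p = 7.2e-14) against CD5hi cells. With Y-linked libraries alone, 1 of them Treg, the values were 1.31 and 1.37. Hnrnpl, the related regulator of the same CD45 exons, went the other way, at 301, 319, 296 and 313 CPM in Treg against 352 to 386 in the fresh libraries, and fell by 0.23 ± 0.04 and 0.27 ± 0.04 (log2; adjusted p = 5.4e-05 and 6.3e-06). Per kilobase of merged exon, 11677 bases for Hnrpll and 5953 for Hnrnpl, Hnrpll stood at 9.16 CPM in Treg and Hnrnpl at 51.6.

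The other genes called higher had small changes. Srsf9 gave 0.13 ± 0.05 (adjusted p = 0.039) against CD5lo and 0.03 ± 0.05 (adjusted p = 0.64) against CD5hi cells, and leaving out fresh CD5lo replicate 4 or Treg replicate 1 or 4 ended the call. Among Y-linked libraries the first was 0.06 (adjusted p = 0.56). Sf3a1 gave 0.16 ± 0.07 (adjusted p = 0.045) and Sf3b5, a small SF3B subunit, 0.26 ± 0.10 (adjusted p = 0.036) against CD5hi cells. Both calls were lost on leaving out single libraries, for Sf3a1 fresh CD5hi replicate 1, 2 or 4 or Treg replicate 1 or 2, and for Sf3b5 fresh CD5hi replicate 2 or 3 or Treg replicate 2 or 3. Among Y-linked libraries Sf3a1 gave 0.03 (adjusted p = 0.80).

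Of the 20 hnRNP genes 7 were lower than in CD5lo and 8 lower than in CD5hi cells. Hnrnpa3, among the most abundant, stood at 799, 762, 788 and 732 CPM in Treg against 939.7 to 1031 in the fresh libraries, without overlap, and fell by 0.35 ± 0.08 and 0.37 ± 0.08 (log2; adjusted p = 0.00052 and 0.00035). Hnrnpu, the scaffold attachment factor, averaged 629 ± 18.5 CPM in Treg and 801 ± 23.4 in fresh CD5hi cells (-0.35 ± 0.05 (adjusted p = 1.9e-06)). Hnrnph3 averaged 44.0 ± 1.05 CPM against 58.8 ± 2.34 in fresh CD5lo cells (-0.42 ± 0.11 (adjusted p = 0.0025)), with -0.19 ± 0.11 (adjusted p = 0.15) against CD5hi cells. Hnrnpa1 was not called, at -0.16 ± 0.15 (adjusted p = 0.37) and -0.04 ± 0.15 (adjusted p = 0.85). Hnrnpa0, whose promoter stretch is printed above beside that of Hnrnpa3, averaged 258 ± 21.2 CPM in Treg, against 306 ± 15.3 and 308 ± 10.7 in the fresh groups (-0.25 ± 0.07 (adjusted p = 0.0027) and -0.26 ± 0.07 (adjusted p = 0.0020)).

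Of the 11 SR genes 6 were lower in each comparison. Srsf6 stood at 280.1, 300.2, 322 and 317 CPM in Treg, 381, 431, 413 and 423 in fresh CD5lo and 419, 415, 424 and 427 in fresh CD5hi cells, without overlap, and fell by 0.43 ± 0.06 and 0.47 ± 0.06 (log2; adjusted p = 9.1e-07 and 3.9e-07). Srsf12 stood at 2.26, 2.71, 3.04 and 2.41 CPM in Treg, near its rested level and below every fresh library, and fell by 1.13 ± 0.12 and 1.16 ± 0.12. Srsf5 fell by 0.32 ± 0.10 against CD5lo (adjusted p = 0.0078) and gave -0.17 ± 0.10 (adjusted p = 0.15) against CD5hi cells, and among Y-linked libraries the first was -0.11 (adjusted p = 0.38). Srsf7 fell by 0.22 ± 0.07 and 0.20 ± 0.07 (adjusted p = 0.0078 and 0.014), and these became -0.08 and -0.07 among Y-linked libraries, without a call. Leaving out Treg replicate 1 or fresh replicate 3 also ended them.

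Srsf1 averaged 376 ± 44.7 CPM in Treg and was not called (0.06 ± 0.08 and 0.05 ± 0.08), nor were Srsf2 (-0.16 ± 0.09 and -0.14 ± 0.09) and Srsf3 (-0.04 ± 0.06 and -0.03 ± 0.06). The Treg libraries of Srsf1 split, at 337, 338, 417 and 412 CPM. Treg replicate 3, the Y-linked one, held the most, and against the Y-linked fresh libraries Srsf1 was called higher, by 0.23 and 0.22.

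Of the Sm genes Snrpd3 fell the most in Treg. It stood at 55.9, 54.9, 47.7 and 44.2 CPM in Treg, against 84.4, 82.4, 86.9 and 82.1 in fresh CD5lo and 86.6, 83.1, 80.4 and 80.4 in fresh CD5hi cells, and 80.9 to 98.6 in the rested libraries. The highest Treg library was well below the lowest of the 16 naive libraries. It fell by 0.73 ± 0.07 and 0.71 ± 0.07 on the log2 scale (adjusted p = 6.8e-09 and 1.3e-08), and by 0.80 and 0.78 among Y-linked libraries. Of the 8 Sm genes 0 were called higher, and 2 were lower than in CD5lo and 3 lower than in CD5hi cells. The others called lower, named after their values were seen, were Snrpg, at -0.24 ± 0.08 (adjusted p = 0.010) and -0.20 ± 0.08 (adjusted p = 0.031), and Snrpb against CD5hi cells, at -0.15 ± 0.05 (adjusted p = 0.021), with -0.11 ± 0.05 (adjusted p = 0.083) against CD5lo cells. Other ring partners were not called. Snrpd1 gave 0.10 ± 0.08 and -0.04 ± 0.08, Snrpd2 -0.01 ± 0.10 and 0.05 ± 0.10, and Snrpe -0.15 ± 0.14 and -0.18 ± 0.14. Snrpd3 shares exon bases with Gucd1 on the opposite strand.

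Among U1 and Prp38 genes 3 of 7 were lower in each comparison. Prpf40b averaged 12.3 ± 0.618 CPM in Treg against 20.5 ± 1.66 and 19.7 ± 1.42 in the fresh groups (-0.74 ± 0.09 (adjusted p = 2.5e-07) and -0.68 ± 0.09 (adjusted p = 9.6e-07)). Prpf39, a U1 protein of alternative splicing, averaged 158 ± 9.76 CPM against 209 ± 11.9 and 198 ± 9.12 (-0.40 ± 0.08 (adjusted p = 0.00013) and -0.33 ± 0.08 (adjusted p = 0.0011)). Prpf38b, whose promoter stretch is printed above, averaged 248 ± 4.32 CPM and fell by 0.35 ± 0.08 and 0.41 ± 0.08 (adjusted p = 0.00088 and 0.00021). For all 3 of the lower genes no Treg library overlapped a fresh one.

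The U2 genes had 4 of 13 lower in each comparison, 30.8%, where 29.4 and 26.6% of all tested genes were called lower. Sf3b1 stood at 965, 954, 1051 and 1023 CPM in Treg, below every fresh CD5hi library, and fell against CD5hi cells by 0.30 ± 0.05 (log2; adjusted p = 6.0e-05), with -0.09 ± 0.05 (adjusted p = 0.17) against CD5lo cells. The levels ran from Treg through fresh CD5lo to fresh CD5hi cells, and Treg and CD5lo libraries overlapped. U2af1 averaged 61.9 ± 3.08 CPM and was not called (-0.09 ± 0.05 (adjusted p = 0.14) and -0.11 ± 0.05 (adjusted p = 0.071)).

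The tri-snRNP and Prp19 group had 6 of 8 lower than in CD5lo and 5 of 8 lower than in CD5hi cells. Prpf4b, a kinase of the tri-snRNP, averaged 219.6 ± 12.9 CPM in Treg against 276 ± 15.3 and 275 ± 11.5 (-0.33 ± 0.07 (adjusted p = 0.00065) and -0.32 ± 0.07 (adjusted p = 0.00088)). Prpf3, a U4/U6 protein, averaged 41.9 ± 1.80 CPM against 54.2 ± 4.39 and 49.5 ± 3.69 (-0.37 ± 0.07 (adjusted p = 6.4e-05) and -0.24 ± 0.07 (adjusted p = 0.0042)). Prpf8 stood at 557, 544, 480.2 and 553 CPM and fell by 0.24 ± 0.06 and 0.17 ± 0.06 (adjusted p = 0.0014 and 0.017). Replicate 3 was the lowest of the Treg libraries, and the call against CD5hi cells was lost without it, at -0.11.

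**Figure D4:**
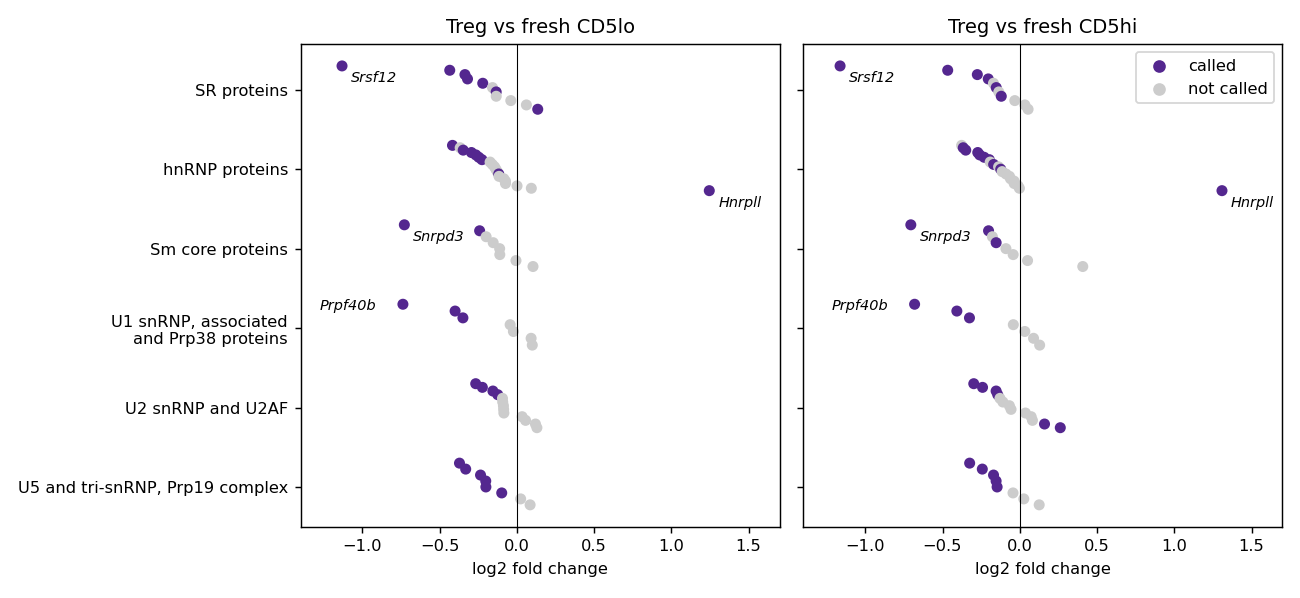
Log2 fold change (x axis) of each of the 67 splicing genes between Treg and fresh CD5lo (left) or fresh CD5hi cells (right), in rows by role; purple points were called at an adjusted p below 0.05. Most called genes lie left of 0 in each of the 6 roles, Hnrpll stands alone at 1.25 and 1.31, and Srsf12, Snrpd3 and Prpf40b lie farthest left.

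Markers of other cells also differed between Treg and fresh libraries. B cell transcripts summed to 24.5 to 26.8 CPM in Treg and 3.88 to 6.19 in fresh naive libraries, and myeloid transcripts to 252 to 283 and 184 to 208. CD8 and NK cell transcripts summed to 31.0 to 37.9 CPM in Treg, 85.2 to 93.4 in fresh CD5lo and 36.3 to 38.9 in fresh CD5hi libraries. Erythroid transcripts summed to 1.4 to 32.2 CPM in Treg, 51.5 to 113 in fresh CD5lo and 32.2 to 76.6 in fresh CD5hi libraries. None of these genes was at 0 in Treg, and their part in the Treg differences was not tested.

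A further 118 splicing genes, from a list of other spliceosome proteins, splicing regulators, SR protein kinases and snRNP assembly factors, were counted in the same way. They had 1 called higher and 0 lower between fresh CD5 groups (0.847%) and 0 between rested ones. Of all tested genes, 11.5% were called between the fresh and 8.20% between the rested groups. The 1 was Rbfox2, at 0, 0, 0.0391 and 0 CPM in CD5lo and 0.129, 0.0902, 0.0355 and 0.233 in CD5hi cells. It was named after its values were seen, and its groups overlapped. On resting 28 were higher and 29 lower in CD5lo, and 31 and 27 in CD5hi cells, which is 48.3 and 49.2% called against 54.3 and 52.4% of all tested genes. In Treg 11 were higher and 54 lower than in CD5lo, and 10 and 52 than in CD5hi cells, which is 55.1 and 52.5% called against 58.5 and 54.2%.

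On resting the CLK and other SR protein kinases had 4 of 9 higher and 2 lower in CD5lo, and 6 and 2 in CD5hi cells. Of all tested genes, 26.9% were called higher and 27.3% lower in CD5lo cells, and 26.2% each way in CD5hi cells. The 9 kinases are few and were not tested against these shares. Clk1, which phosphorylates SR proteins, rose from 419.6 ± 16.3 to 706 ± 134 CPM and from 426 ± 17.3 to 711 ± 135 (0.75 ± 0.12 and 0.74 ± 0.12). Mbnl3, a muscleblind protein encoded on the X chromosome, rose from 28.4 ± 2.81 to 142 ± 10.1 and from 24.3 ± 1.24 to 147 ± 13.4 (2.32 ± 0.08 and 2.59 ± 0.08), and the rested libraries of replicate 3, which carried Y-linked reads, held 127 and 129 CPM. Among RNA-binding proteins Tardbp, which encodes TDP-43, rose (0.48 ± 0.08 and 0.54 ± 0.08). Luc7l3, a U1-associated protein, rose (0.80 ± 0.08 and 0.81 ± 0.08), as did the minor spliceosome gene Rnpc3 (0.66 ± 0.09 and 0.64 ± 0.09). Celf2 (-0.72 ± 0.06 and -0.80 ± 0.06) and Khdrbs1, which encodes Sam68 (-0.60 ± 0.10 and -0.67 ± 0.10), fell.

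In Treg the SR protein kinase Srpk1 averaged 184 ± 8.33 CPM against 313 ± 9.47 and 311 ± 8.00 in the fresh groups (-0.77 ± 0.06 and -0.76 ± 0.06). Aqr, an intron-binding helicase of the spliceosome, averaged 126 ± 2.05 against 246 ± 2.22 and 229.7 ± 3.87 (-0.97 ± 0.05 and -0.87 ± 0.05). The methyltransferase Prmt5, which modifies Sm proteins before ring assembly (-0.59 ± 0.06 and -0.61 ± 0.06), and Gemin5 of the SMN complex (-0.58 ± 0.06 and -0.62 ± 0.06) were lower as well. Gemin8 of the same complex was higher, at 10.5 ± 0.568 CPM against 4.29 ± 0.424 and 3.44 ± 0.249 (1.30 ± 0.12 and 1.61 ± 0.12). Mbnl3 was also higher in Treg (1.58 ± 0.08 and 1.81 ± 0.08). All values in these last paragraphs passed the test.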

How the data were processed

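Per the submitters' processing notes, the tools were edgeR, featureCounts 1.4.5, Subread and TopHat2 2.0.11, with the mm9 build, in an order not stated. Which annotation and strand option were used is not given in the sources used here. Per the labels the kit was an mRNA kit read 50 bases from each end. The authors deposited whole-number counts per gene symbol for 20 libraries. Of counts from 1 to 10, 62.3 to 66.2% per library were even, so mates appear to have been counted separately and counting error is understated. A second deposited table of normalised values was not used.

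The test was that of edgeR 4.0.16 under R 4.3.3 (quasi-likelihood, TMM scaling, default expression filter, 1 factor of 5 groups, 15 residual degrees of freedom, 13309 genes kept, two-sided). Each comparison's p-values were adjusted over all genes kept (Benjamini-Hochberg). The SE is the size of the log2 fold change over the square root of the quasi-likelihood F. The 7 comparisons share groups and the spread of all 20 libraries. Scripts were tested on simulated counts with 200 changed genes. The members and lists were chosen with earlier results of these data known. Named genes are up to 8 largest called rises and 8 falls per comparison (mean of 10 CPM or more in the higher group), up to 6 each way from the other splicing lists, and 11 genes always given; some are not reported here. CD5lo and CD5hi libraries of the same number and state tended to deviate together. Correlations of their deviations over genes were 0.41 to 0.79 when fresh and 0.23 to 0.84 when rested. Across states and with Treg the correlations ran from -0.28 to 0.49. The ranges overlap, since replicate 4 gave 0.23 between the rested groups and replicate 3 gave 0.49 between rested CD5lo and Treg. Pairs within a state were inferred from these values. Alternatives were other size factors and filters, DESeq2 1.42.0, the compared groups alone, the replicate block, each library left out, Y-linked libraries alone, and rested replicates in pairs. Promoter and exon annotation is of GRCm38, so no mm9 coordinate is given.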

Additional observations from a re-analysis of the deposited data

Results flagged for a closer look

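Of 175 groups of 4 libraries examined (35 named splicing genes in 5 groups), 9 held a library far from the other 3, and chance alone flags about 1 group in 20. In rested CD5hi replicate 3, Hnrnpa3 stood at 726 CPM with the next library at 957, Hnrnpu at 730.2 with the next at 816, and Snrpe at 108 with the next at 67.1. In rested CD5lo replicate 3, Sf3b5 stood at 38.7 CPM with the next at 31.1. In Treg, replicate 3 held 480.2 CPM of Prpf8 with the next at 544, and replicate 4 held 43.5 CPM of Snrpe with the next at 51.6. In fresh CD5lo replicate 2, Prpf8 stood at 595 CPM with the next at 638. In fresh CD5hi cells, Srsf7 stood at 299 CPM in replicate 3 with the next at 265, and U2af1 at 63.2 in replicate 4 with the next at 67.7. The libraries of replicate 3 account for 6 of the 9. Those of the rested and Treg groups carried Y-linked reads, as did every fresh library, and a link of the flags to sex was not tested.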

How the results depend on the processing

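Between fresh CD5 groups the count of 1 became 3 in a fit on those groups alone and 2 with the replicate block. Calls over all tested genes moved as well, from 1524 of 13309 to 2183 of 12527 and 2396 of 13309. Between rested CD5 groups the count of 3 became 1 without a filter on low counts, 0 on those groups alone and 5 with the replicate block. It was 1 on rested replicates 1 and 2 and 0 on replicates 3 and 4, and ran from 1 to 5 on leaving out single libraries. Over all tested genes, the 1092 calls became 1008 without the filter, 495 on those groups alone and 1960 with the block. They were 901 on rested replicates 1 and 2 and 639 on replicates 3 and 4. For resting in CD5lo cells the count of 34 ran from 21 to 33 on leaving out single libraries, the lowest without rested CD5lo replicate 4. All tested genes gave 7221 calls of 13309 for this comparison in the main fit. Leaving out single libraries moved them as well. They ran from 6330 of 13455, also without rested CD5lo replicate 4, to 7318 of 13451 without rested CD5lo replicate 1. Elsewhere counts of the splicing genes stayed within 1.5 times. The numbers showed no regular pairing of libraries across states or with Treg. A block on them gave 28, 22, 30 and 34 for resting in CD5lo, resting in CD5hi, Treg against CD5lo and Treg against CD5hi. In the interaction it gave 0. Over all tested genes, the blocks called 51.5, 49.3, 60.7 and 58.0% in the same order, and 1.86% in the interaction. The named genes gave 115 changes that were called and 54 that were not. For the called ones, leaving out a library kept the call in 870 cases and ended it in 50, the other alternatives kept it in 893 and ended it in 30, and the sign never turned. For the others, a call was made in 2 and 12 cases, and the sign of an uncalled value turned in 51 and 26. In the alternative with Y-linked libraries alone, the lone rested or Treg library is assumed to vary like the other groups. Small changes in genes under 10 CPM are limited by counting.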
